A study of Mus musculus with 8 samples.

Results

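The genes described here are 37 genes of DNA break signalling and repair, listed by name, with earlier results of these data known. They were measured in lung mesenchymal cells of mice that had received bleomycin, and in the same cells of mice that had received phosphate-buffered saline. A gene was taken from the deposited table where a probe set was annotated with that gene alone, and 34 of the 37 had such a row, out of 22180 genes in all. The row of Fanca was shared with another gene, and Xrcc2 and Rbbp8 were not analysed here. Atr had 2 rows, and the brighter was used.

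The labels give whole lung as the tissue. All mice were C57BL/6J, 11 weeks old and kept free of specific pathogens. Both agents were given into the trachea, and cells lacking CD45, CD31 and EpCAM were sorted on day 10. There were 4 bleomycin arrays and 4 control arrays, each hybridised with cRNA made from 100 ng of total RNA. The labels name no separate animals behind the replicates, so the p-values measure only how far these samples scatter, and that scatter may be technical.

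A double-strand break is sensed by the complex of Mre11, Rad50 and Nbn, which activates the kinase Atm, and single-stranded DNA at stalled or resected ends activates the kinase Atr. The break is then joined directly by the Ku proteins, DNA-PK and ligase IV, or copied from the sister chromatid by homologous recombination, which is available in S and G2 phase. The Fanconi anaemia proteins unhook crosslinks and hand the lesion to recombination. Bleomycin binds metal ions and oxidises DNA, which leaves single- and double-strand breaks.

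Several of the genes that were higher in bleomycin samples carry letters bound by the E2F transcription factors, the regulators of S phase entry, beside their start. The stretches printed next run from 70 bases before the RefSeq start to 30 bases after it (build GRCm38.p6, 5′ to 3′ on the gene's strand). They were picked from the genes that rose and have a match next to the start, and the capitals mark the match. Atm, Rad51c, Mdc1 and the end joining gene Xrcc6, which did not pass, also hold a match within such a stretch and are not printed. Brca1 and Rad51ap1 belong to recombination, Brip1 and Fanci to the Fanconi genes, Clspn to the checkpoint and Polq to microhomology-mediated joining. Blmh and Xrcc5 are added as promoters with no match in the whole window that was searched. Rad54l, which rose, has no match in that window either and is not printed.
Clspn, chr4:126556910-126557009, plus strand: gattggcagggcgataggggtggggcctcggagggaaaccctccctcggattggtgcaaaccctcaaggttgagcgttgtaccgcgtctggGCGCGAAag
Brca1, chr11:101551926-101552025, minus strand: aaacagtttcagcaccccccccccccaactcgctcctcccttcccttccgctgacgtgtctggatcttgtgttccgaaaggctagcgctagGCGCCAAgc
Brip1, chr11:86201164-86201263, minus strand: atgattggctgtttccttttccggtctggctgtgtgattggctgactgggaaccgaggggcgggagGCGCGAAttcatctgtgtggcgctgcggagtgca
Fanci, chr7:79392268-79392367, plus strand: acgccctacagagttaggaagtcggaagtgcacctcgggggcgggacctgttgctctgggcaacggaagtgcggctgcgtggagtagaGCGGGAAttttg
Rad51ap1, chr6:126939558-126939657, minus strand: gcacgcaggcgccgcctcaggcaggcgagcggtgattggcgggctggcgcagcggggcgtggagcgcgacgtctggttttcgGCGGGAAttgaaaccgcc
Polq, chr16:37011716-37011815, plus strand: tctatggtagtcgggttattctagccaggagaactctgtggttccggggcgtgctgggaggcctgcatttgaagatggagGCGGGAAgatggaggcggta
Blmh, chr11:76945586-76945685, plus strand: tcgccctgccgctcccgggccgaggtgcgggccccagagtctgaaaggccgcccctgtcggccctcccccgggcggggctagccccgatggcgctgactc
Xrcc5, chr1:72307351-72307450, plus strand: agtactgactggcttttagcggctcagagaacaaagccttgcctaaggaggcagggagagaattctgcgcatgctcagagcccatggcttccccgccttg

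Bleomycin samples had higher levels of 14 of the 34 genes and lower levels of 2, while 18 did not pass (limma, Benjamini-Hochberg adjusted p under 0.05). Over all 22180 genes the same fit called 9.12% higher and 8.24% lower. Of 9 recombination genes 4 rose and none fell, of 4 Fanconi genes 3 rose and none fell, and Polq, the polymerase of microhomology-mediated joining, rose. Of 7 end joining genes 1 rose and 2 fell. Of 9 sensor and checkpoint genes 4 rose and none fell, and of the 3 genes of poly(ADP-ribose) and single-strand break repair none passed. The median log2 difference (bleomycin minus control) was 0.54 for recombination, 0.73 for Fanconi, 0.09 for end joining and 0.11 for sensor genes, against 0.03 for all genes. The groups did not overlap in 17 of the 34 genes, against 23.5% of all genes.

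**Figure D1:**
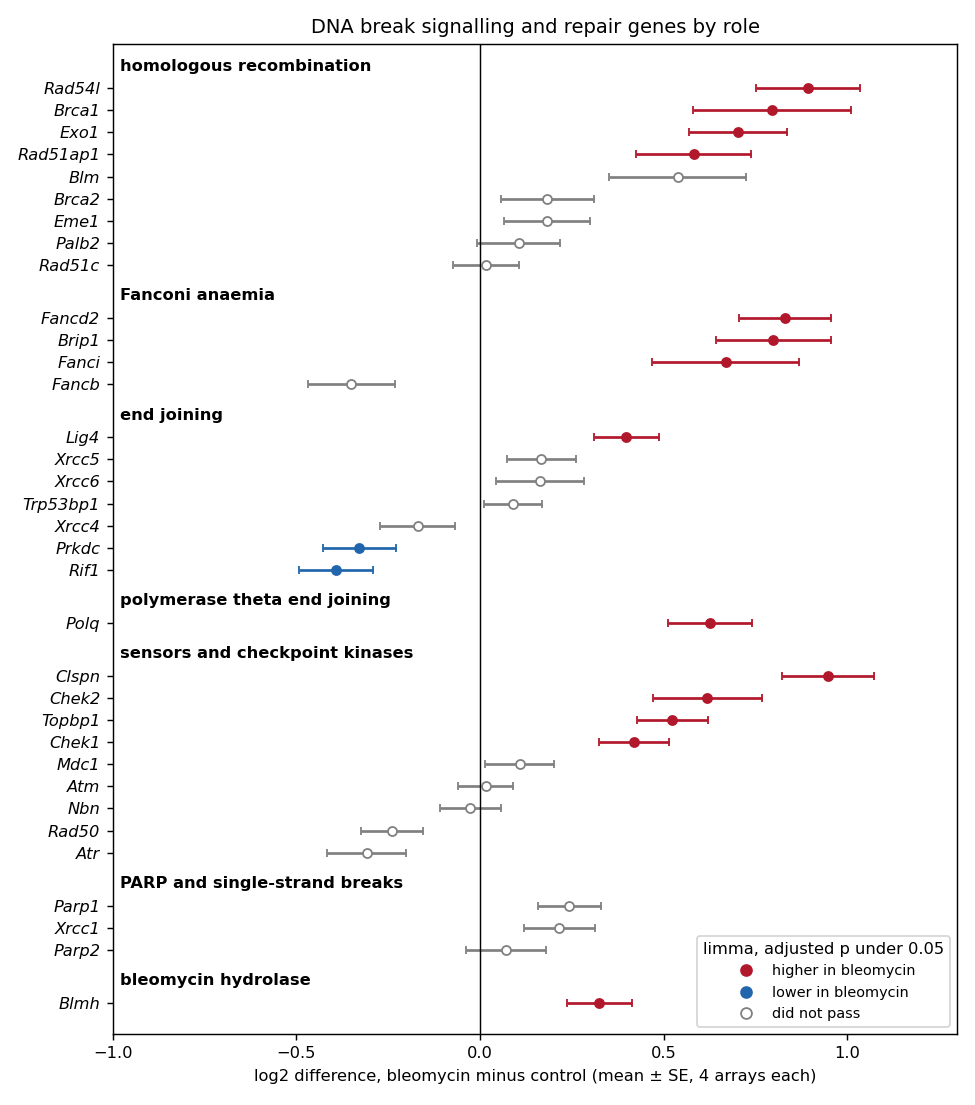
Log2 difference between bleomycin and control arrays (mean ± SE, 4 arrays each) for the 34 genes, grouped by role. Recombination genes lie between 0.02 and 0.89, Fanconi genes between -0.35 and 0.83, sensor and checkpoint genes between -0.31 and 0.95 and end joining genes between -0.39 and 0.40.

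These calls depended on how many arrays entered the fit and on which. Leaving out 1 array left 10 to 14 genes higher and 0 to 2 lower. Over all genes these fits called 6.75% to 8.96% higher and 5.89% to 8.49% lower. The 10 genes Rad54l, Exo1, Fancd2, Brip1, Lig4, Polq, Chek1, Chek2, Topbp1 and Clspn kept their call in all 8 such fits. With replicates 1 and 2 alone 6 genes were called higher and none lower, against 3.78% and 3.76% of all genes. At an unadjusted p under 0.05 (limma), 15 were higher there and 3 lower. With replicates 3 and 4 alone none was called by limma (smallest adjusted p among the 16 = 0.051), against 2.27% of all genes higher and 0.992% lower. In that set 14 were higher and 0 lower at an unadjusted p under 0.05. The share of all genes at the unadjusted threshold is not given here, so the unadjusted counts have no background beside them. All 16 genes called in the full set had the same direction in both of these smaller sets.

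Many of the recombination and Fanconi genes were dim. The control mean of 9 of the 34 genes lay below 4.52, the highest of the control arrays' medians for rows without a gene. They were Brca1, Palb2, Rad51ap1, Rad54l, Eme1, Fancb, Fancd2, Fanci and Polq, and 6 of them were among the 14 that rose. Levels this low cannot be told from background with the values used here, and the size of these rises is uncertain.

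In homologous recombination, Rad54l and Exo1 rose with the groups apart. Rad54l encodes a motor protein of the strand invasion step. It stood at 5.19, 4.97, 4.99 and 4.64 (log2 level, replicates 1 to 4, as in all such lists) on bleomycin arrays, against 4.37, 3.87, 3.93 and 4.04 on control arrays. The lowest bleomycin array was above the highest control array, and the difference was 0.89 ± 0.14 (log2 difference ± SE, as in all such values; limma adjusted p = 0.00194), or 1.86-fold. Exo1, a nuclease that resects broken ends, stood at 6.10, 5.78, 5.76 and 5.62 on bleomycin arrays and at 5.11, 4.82, 5.21 and 5.30 on control arrays. All 4 bleomycin values lay above all 4 control values, by 0.70 ± 0.13 on average (limma adjusted p = 0.00523).

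Brca1 and Rad51ap1 also passed, with adjusted p-values nearer the threshold. Brca1 promotes resection and acts with Palb2 and Brca2. Its levels were 5.58, 4.48, 4.98 and 4.96 on bleomycin arrays, against 3.86, 4.24, 4.55 and 4.17 on control arrays. Bleomycin replicate 2 lay below control replicate 3, so the groups overlapped, and the difference was 0.79 ± 0.22 (limma adjusted p = 0.0287). Rad51ap1, which stimulates strand exchange, stood at 4.14, 4.52, 4.76 and 4.24 on bleomycin arrays and at 3.57, 3.87, 4.12 and 3.77 on control arrays. The groups were apart by a narrow margin, and the difference was 0.58 ± 0.16 (limma adjusted p = 0.0276). Brca1 lost its call without control replicate 1, 2 or 4 or bleomycin replicate 1 or 3 (adjusted p up to 0.0789). Rad51ap1 lost it without control replicate 1, 2 or 4 or bleomycin replicate 2 or 3 (adjusted p up to 0.0762).

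The other 5 recombination genes did not pass. Blm, the Bloom helicase that dissolves recombination intermediates, stood at 6.13, 5.96, 6.08 and 5.40 on bleomycin arrays, against 5.55, 5.39, 4.93 and 5.55 on control arrays. Bleomycin replicate 4 lay among the controls, and the difference of 0.54 ± 0.19 missed the threshold (limma adjusted p = 0.0736). Blm was called higher without bleomycin replicate 4 and without the dimmer 50% of genes (adjusted p = 0.0126 and 0.04). The differences of Brca2, a mediator of recombination, of the nuclease subunit gene Eme1, of Palb2, which bridges Brca1 and Brca2, and of the recombination gene Rad51c were 0.18 ± 0.13, 0.18 ± 0.12, 0.11 ± 0.11 and 0.02 ± 0.09 (limma adjusted p between 0.337 and 0.926). Brca1 thus passed and its partners Brca2 and Palb2 did not, and whether the 3 differ from each other was not tested.

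Of the Fanconi genes, both members of the Fancd2-Fanci clamp and the helicase Brip1 rose. Fancd2 stood at 5.52, 5.20, 5.44 and 5.08 on bleomycin arrays and at 4.23, 4.51, 4.65 and 4.54 on control arrays. The groups were apart, with a difference of 0.83 ± 0.13 (limma adjusted p = 0.00152), or 1.78-fold. Its partner Fanci stood at 4.77, 4.47, 4.88 and 4.40 on bleomycin arrays, against 4.01, 3.47, 3.85 and 4.50 on control arrays. Control replicate 4 reached the bleomycin range, and the difference was 0.67 ± 0.20 (limma adjusted p = 0.0431). Fanci lost its call without control replicate 1, 2 or 3 or bleomycin replicate 1, 2 or 3 (adjusted p up to 0.113), and with each array centred on its median (adjusted p = 0.057). Brip1, which binds Brca1, stood at 5.90, 5.68, 5.75 and 5.25 on bleomycin arrays and at 4.93, 5.07, 4.53 and 4.86 on control arrays. The groups were apart, and the difference was 0.80 ± 0.16 (limma adjusted p = 0.00574).

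Fancb, a subunit of the ligase complex that ubiquitinates the clamp, leaned the other way. Its levels were 4.24, 3.82, 4.13 and 3.93 on bleomycin arrays, against 4.54, 4.25, 4.25 and 4.50 on control arrays. All bleomycin values lay below all control values, yet the difference of -0.35 ± 0.12 did not pass (limma adjusted p = 0.0693), and it passed with each array centred on its median and without bleomycin replicate 1. Both group means of Fancb, 4.03 and 4.38, lay below the medians of rows without a gene. Those medians were themselves lower on bleomycin arrays, 4.20 to 4.35, than on control arrays, 4.44 to 4.52. Whether Fancb differs beyond that shift was not tested.

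**Figure D2:**
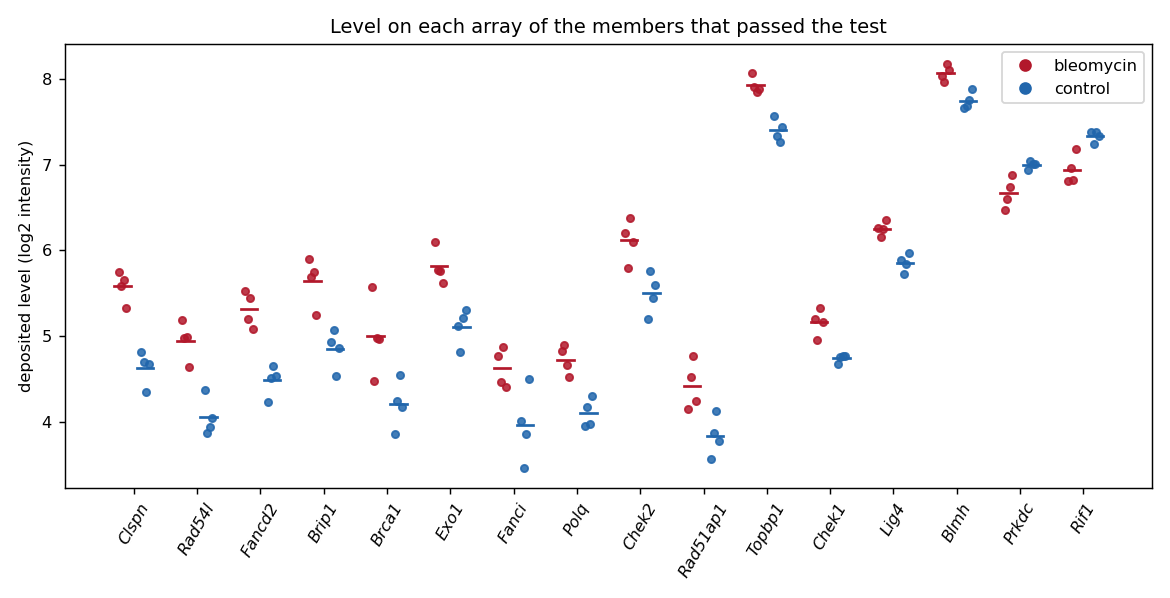
Deposited log2 level on each array of the 16 genes that passed, with bleomycin arrays left of control arrays, lines at the group means and genes ordered by difference. The groups overlap in Brca1 and Fanci and are apart in the other 14. Heights are not comparable between genes, since each probe set has its own brightness.

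End joining genes moved in both directions. Lig4, the ligase that seals the ends, rose. Its levels were 6.26, 6.16, 6.25 and 6.35 on bleomycin arrays and 5.89, 5.73, 5.84 and 5.97 on control arrays. The groups were apart and narrow, with a difference of 0.40 ± 0.09 (limma adjusted p = 0.0113), or 1.32-fold.

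Prkdc and Rif1 fell. Prkdc, the catalytic subunit of the DNA-dependent protein kinase, stood at 6.47, 6.60, 6.74 and 6.87 on bleomycin arrays, against 6.94, 7.04, 7.01 and 7.01 on control arrays. All bleomycin values lay below all control values, and the difference was -0.33 ± 0.10 (limma adjusted p = 0.0455). Rif1, which acts with 53BP1 to shield ends from resection, stood at 6.81, 6.97, 6.82 and 7.18 on bleomycin arrays and at 7.39, 7.24, 7.38 and 7.34 on control arrays. These groups were apart as well, by -0.39 ± 0.10 (limma adjusted p = 0.0236). Prkdc lost its call in 7 of the 8 fits without 1 array, all but that without bleomycin replicate 4 (adjusted p up to 0.111). Rif1 lost it without control replicate 1, 3 or 4 or bleomycin replicate 1 or 3 (adjusted p up to 0.0674).

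The remaining end joining genes did not pass. The Ku subunit genes Xrcc5 and Xrcc6, whose proteins thread onto the ends as a dimer, gave near-equal differences of 0.17 ± 0.09 and 0.16 ± 0.12. Trp53bp1, which encodes 53BP1, differed by 0.09 ± 0.08 and Xrcc4, the partner of ligase IV, by -0.17 ± 0.10. The adjusted p of these 4 genes lay between 0.267 and 0.49 (limma). Lig4 and its partner Xrcc4 thus differed in sign, with only Lig4 called.

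Polq, listed apart from these genes, rose. Its polymerase joins resected ends at short stretches of shared sequence. It had levels of 4.82, 4.89, 4.66 and 4.52 on bleomycin arrays and 3.95, 4.17, 3.98 and 4.30 on control arrays. The groups did not overlap, and the difference was 0.63 ± 0.12 (limma adjusted p = 0.00432), or 1.54-fold, at a level near background in controls.

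Among sensors and checkpoint genes, the 4 that rose were Clspn, Topbp1, Chek1 and Chek2. Topbp1 activates Atr, claspin (Clspn) carries the signal from Atr to the kinase Chek1, and Chek2 is the effector kinase of Atm. Clspn had the largest difference of the 34 genes. It stood at 5.75, 5.58, 5.66 and 5.33 on bleomycin arrays, against 4.81, 4.70, 4.35 and 4.67 on control arrays. The groups were well apart, with a difference of 0.95 ± 0.13 (limma adjusted p = 0.000684), or 1.93-fold. Topbp1, at a brighter level, stood at 8.07, 7.90, 7.85 and 7.88 on bleomycin arrays and at 7.57, 7.33, 7.26 and 7.44 on control arrays. Its groups were apart by 0.52 ± 0.10 on average (limma adjusted p = 0.00437).

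Both checkpoint kinases rose. Chek1 stood at 5.20, 4.95, 5.33 and 5.16 on bleomycin arrays, against 4.67, 4.76, 4.77 and 4.77 on control arrays, a difference of 0.42 ± 0.10 (limma adjusted p = 0.0132). Chek2 stood at 6.21, 5.79, 6.37 and 6.10 on bleomycin arrays and at 5.20, 5.76, 5.44 and 5.60 on control arrays, a difference of 0.62 ± 0.15 (limma adjusted p = 0.0167). In both genes the lowest bleomycin array was replicate 2, and for Chek2 it stood just above the highest control array.

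The genes that recognise breaks did not pass. Atm stood at 6.99, 6.96, 6.94 and 6.96 on bleomycin arrays and at 7.00, 6.89, 6.95 and 6.96 on control arrays, a difference of 0.01 ± 0.08 (limma adjusted p = 0.922). Its arrays were interleaved. Nbn differed by -0.03 ± 0.08 and Mdc1, the adaptor that reads phosphorylated H2AX, by 0.11 ± 0.09. Rad50, whose groups were apart, differed by -0.24 ± 0.08, and Atr by -0.31 ± 0.11 (limma adjusted p = 0.0748 and 0.0769). The second, dimmer row of Atr differed by 0.10 ± 0.19. Both Rad50 and Atr were called lower with each array centred on its median and without the dimmer 50% of genes, and Rad50 also with the trended and robust variance model. Atr was called lower when replicates 1 and 2 formed one block and the others another (adjusted p = 0.0484), while the mean of its rows differed by -0.11 (adjusted p = 0.583).

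The 3 genes of poly(ADP-ribose) and single-strand break repair leaned upwards without passing. Parp1, the main break-activated polymerase of ADP-ribose, stood at 7.80, 7.57, 7.77 and 7.68 on bleomycin arrays, against 7.45, 7.41, 7.52 and 7.47 on control arrays. The groups were apart, and the difference was 0.24 ± 0.09 (limma adjusted p = 0.0775). Parp1 was called higher after quantile normalization, without the dimmer 50% of genes and with a trended and robust variance model (adjusted p = 0.0478, 0.0291 and 0.0485). The scaffold gene Xrcc1 differed by 0.22 ± 0.10 and Parp2 by 0.07 ± 0.11 (limma adjusted p = 0.163 and 0.709).

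Blmh, the cysteine protease that inactivates bleomycin, rose. It stood at 8.04, 7.96, 8.17 and 8.11 on bleomycin arrays and at 7.67, 7.69, 7.75 and 7.88 on control arrays. The groups were apart by little, with a difference of 0.32 ± 0.09 (limma adjusted p = 0.0299), or 1.25-fold. Blmh lost its call without control replicate 1, 2 or 3 or bleomycin replicate 1, 3 or 4 (adjusted p up to 0.0818), and with each array centred on its median (adjusted p = 0.0583).

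Other genes of these pathways were taken from lists of textbook members. Of 37 further recombination and crosslink genes 8 rose (21.6%) and 1 fell, against 9.12% higher and 8.24% lower over all genes. Trip13, an ATPase of meiotic recombination and the spindle checkpoint, rose by 1.45 ± 0.18, Mms22l, which acts at stalled forks, by 1.14 ± 0.10 and Fignl1 by 1.09 ± 0.14. The control means of Trip13 and Fignl1, 4.27 and 4.34, lay below the control medians of rows without a gene, so the sizes of their rises are uncertain. The Fanconi core gene Fancc fell by 0.94 ± 0.16 and was thus lower in bleomycin samples while Fancd2 was higher. Of 15 further end joining genes 1 rose (6.67%, against 9.12% of all genes), Lig3 by 0.44 ± 0.09, and none fell. The medians of the 2 lists were 0.17 and -0.08.

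Of 23 further sensing and checkpoint genes 6 rose (26.1%) and 2 fell, with a median of -0.02. Cdc25c, the phosphatase that Chek1 restrains, rose by 1.68 ± 0.17, from a control level below that of rows without a gene, and the histone gene H2ax rose by 1.06 ± 0.14. The p53 targets Cdkn1a and Mdm2 rose by 0.99 ± 0.17 and 0.89 ± 0.10. The phosphatase gene Ppm1d, also a p53 target, fell by 0.36 ± 0.09 and Uimc1, which brings the Brca1-A complex to ubiquitin, by 0.38 ± 0.08. Of 32 excision and mismatch repair genes 3 rose (9.4%) and 2 fell. Over all genes 9.12% rose and 8.24% fell, so the share that rose was close to that of all genes. Lig1 and Neil3, genes linked to replication, rose by 0.69 ± 0.12 and 0.68 ± 0.13 and Ddb1 by 0.48 ± 0.12, while Xpc and Ercc5 of nucleotide excision repair fell by 0.64 ± 0.12 and 0.46 ± 0.10. The adjusted p of the genes named from these lists was at most 0.018 (limma).

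Cell cycle markers were higher in the same samples. Of 33 such genes 31 rose and none fell, with a median of 1.22, and Mki67 rose by 2.94 ± 0.24, Top2a by 2.78 ± 0.21, Prc1 by 2.64 ± 0.21 and Mcm5 by 1.40 ± 0.16. On bleomycin replicates 1 to 4 the mean of the 33 genes lay 1.78, 1.34, 1.46 and 1.06 above the mean of the control arrays. The mean of the 13 recombination and Fanconi genes lay 0.61, 0.40, 0.56 and 0.27 above it. Both lists placed the bleomycin arrays in the same order, with replicate 1 highest and replicate 4 lowest. The 9 sensor genes lay 0.28, 0.17, 0.25 and 0.20 above, and the 7 end joining genes 0.00, -0.05, -0.03 and 0.03 from it. The 4 bleomycin arrays give only a description of this order, and the part of cell division in the rise of the repair genes was not tested.

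**Figure D3:**
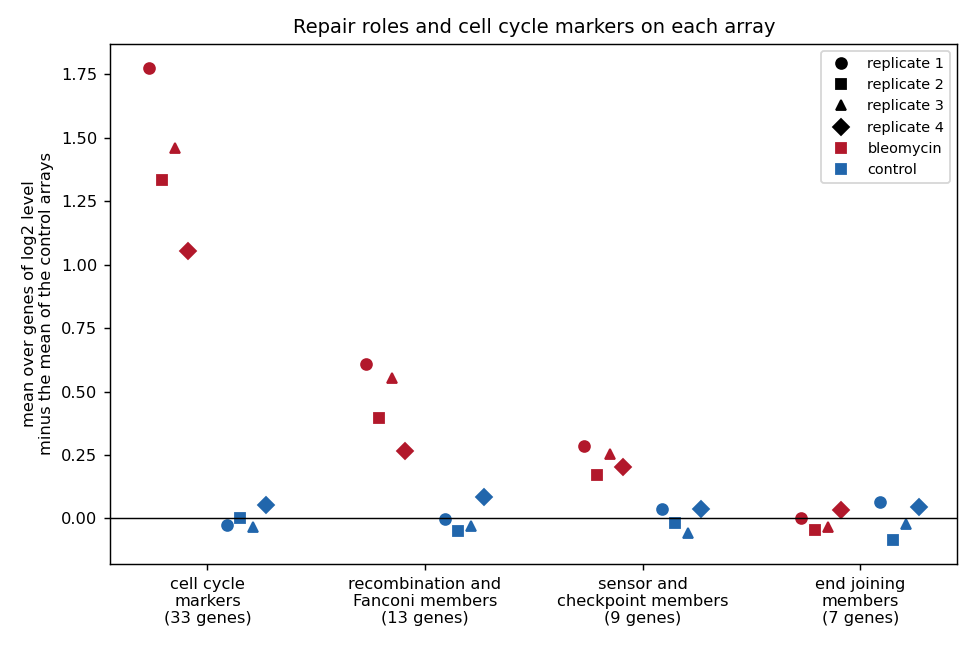
Mean log2 level of each gene list on each array, relative to the mean of the control arrays, with bleomycin arrays left of control arrays and a marker shape for each replicate number. Cell cycle markers lie 1.06 to 1.78 above the control mean on bleomycin arrays and recombination and Fanconi genes 0.27 to 0.61, while end joining genes lie among the controls.

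Of the 14 genes that rose, 7 were highest on bleomycin replicate 1 and 7 lowest on replicate 4. Of the 31 cell cycle markers that rose, 24 were highest on replicate 1 and 24 lowest on replicate 4. Prkdc, which fell, was lowest on bleomycin replicate 1 and highest on replicate 4.

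Promoters were searched for E2F letters, and the shares are given as descriptions without a test. The search covered 300 bases, from 250 before to 50 after the RefSeq start, on both strands. A first form of the E2F letters was TTCCCGC and a further accepted form was TTGGCGC, each counted in either orientation. The remaining accepted forms were TTGCCGC, searched in the same way on both strands, and, with the same treatment, TTCGCGC. Of the 34 genes, 28 had a promoter in the table, and 18 of these (64.3%) held a match, against 10.9% of 27025 genes with a promoter and 13.7% of the 16990 tested genes with one. Among the members that rose, 10 of 12 held a match, all but Rad54l and Blmh, and among those that did not pass 8 of 16 did. On the gene's own strand alone the order turned, with 1 of the 12 that rose and 4 of the 16 that did not pass. Over all tested genes with a promoter, 19.9% of those called higher and 12.8% of those not called held a match on either strand. Recombination and Fanconi genes held it in 8 of 11 cases, sensor genes in 6 of 7 and end joining genes in 3 of 5. Atm, Rad51c, Mdc1 and Xrcc6 were among the genes that held a match and did not pass. The median GC content was 58.8% for member promoters and 56.3% for the tested genes.

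The matches lay at varied distances. In Rad51ap1, Fanci, Clspn, Brca1 and Polq the first base of the match was base 13, 19, 22, 22 and 11 of the transcript, in Chek1 base 44, and in Brip1 the match began 4 bases before the start. In Chek2, Topbp1 and Lig4 it lay further upstream, and the 2 matches of Topbp1 overlap. Genes that did not pass had matches as close. A match began at base 16 in Atm, at base 13 in Rad51c and at position -15 in Mdc1. Lig4, Rad54l and Rad51c have 2 annotated starts, and a match at either was counted. The cell cycle letters TTTGAA, searched on both strands, were found in 2 of the 28 promoters (7.14%), against 20.2% of all, and CCAAT in 14 (50%), against 41.1%. A match is a description of the letters and does not show that a factor binds. Of E2F genes, named after their values were seen, E2f1 rose by 0.45 ± 0.11 and E2f8 by 2.37 ± 0.23 (limma adjusted p = 0.0162 and 0.000113). Both belong to the list of cell cycle markers, and the other E2F genes are not given here. The control mean of E2f8, 4.32, lay below the control medians of rows without a gene, so the size of its rise is uncertain.

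**Figure D4:**
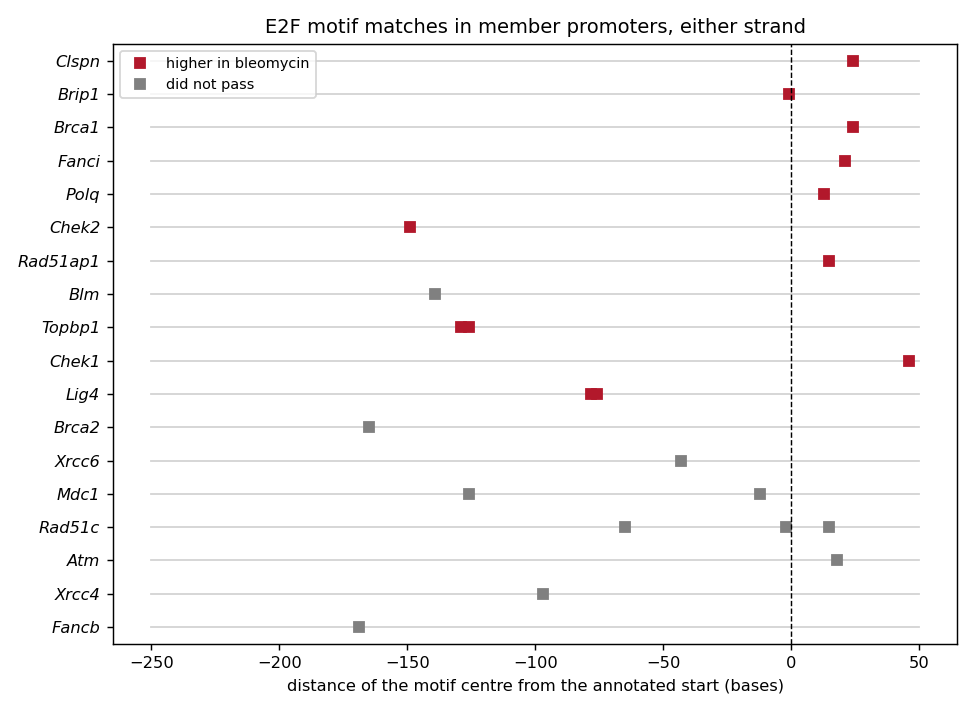
Position of each E2F match, by the distance of its centre from the annotated start in bases, in the 18 member promoters that hold one, ordered by difference. Red squares mark the 10 genes that rose, of which 6 have their match within 50 bases after the start. Grey squares mark the 8 that did not pass, of which Atm and Rad51c also have a match there.

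The sorted samples also differed in markers of other cell types. Of 13 alveolar epithelial markers 10 were lower and none higher, and of 10 blood endothelial markers 8 were lower and none higher. Their summed linear intensities were 2016 to 4415 and 1711 to 2618 on bleomycin arrays, against 8377 to 16141 and 3292 to 7252 on control arrays. Of 11 leukocyte and macrophage markers 4 were higher, with sums of 1911 to 2760 on bleomycin arrays and 2016 to 3280 on control arrays. Lyz2, the brightest, weighs most in these sums and differed by -0.57 ± 0.21 without passing (limma adjusted p = 0.0951). Differences were above 0 in 8 of the 11, and their mean log2 level was 6.84 on bleomycin arrays and 6.69 on control arrays. Of 8 lymphocyte markers 3 were lower, with sums of 290 to 339 and 361 to 455, in the same order of groups, and none of 5 mesothelial markers passed, with sums of 371 to 472 and 388 to 484. Of 10 mesenchymal markers 7 were higher and 2 lower. A level above 0 does not show that a cell type was present, since rows without a gene had array medians of 4.20 to 4.52. Where a sample is a mixture, fewer cells of a type and less RNA per cell cannot be told apart. The part of other cells in the repair genes was not tested.

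The mean of the epithelial markers and that of the endothelial markers were higher on control replicates 1 and 2 than on 3 and 4, although not every marker was. Without control replicates 1 and 2, 6 genes were called higher and none lower by limma, against 5.43% and 4.47% of all genes. At an unadjusted p under 0.05, 13 were higher and 3 lower, with no share of all genes given beside them. The 6 were Rad54l, Fancd2, Brip1, Polq, Topbp1 and Clspn, with differences of 0.96, 0.72, 0.95, 0.59, 0.57 and 1.07.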

How the data were processed

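RNA of sorted lung mesenchymal cells was measured on 8 one-colour arrays, 4 for bleomycin and 4 for control. The authors deposited 1 value per probe set and array, read here as log2 intensities from their range of 0.24 to 13.58, since no scale is named. How they corrected background, summarised probes and normalized arrays is not given in the sources used. Of 41345 rows, 23521 were annotated with 1 gene, 1814 with several and 16010 with none, and the brightest single-gene row stood for each of 22180 genes. No filter on low values was used. Array medians over these genes lay within 0.071, so values were used as deposited. The medians of the bleomycin arrays, 5.52 to 5.54, all lay above those of the control arrays, 5.47 to 5.49.

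Groups were compared with limma 3.58.1 (lmFit and eBayes, two-sided, R 4.3.3) and Benjamini-Hochberg adjusted over all genes at a threshold of 0.05. The procedure was tried on simulated data with noise independent between arrays, so that trial does not cover correlated arrays. The members, roles and gene lists were chosen with earlier results of these data known. Named genes are all members, up to 3 passing genes per direction from each list, and Mki67, Top2a, Mcm5, Cdkn1a and Mdm2. Trp53 was not analysed here. Promoters are from RefSeq (GRCm38.p6), matched by symbol. Alternatives covered scaling, probe sets, the variance model, dim genes, blocks and left-out arrays. Precision is limited by having 4 arrays a group.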

Additional observations from a re-analysis of the deposited data

Results flagged for a closer look

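Among the 68 gene-by-group sets of 4 arrays, 3 held a value far from the other 3 by Dixon's criterion, where chance gives about 5%. Eme1 stood at 4.19 on control replicate 1, with the nearest other control at 3.86. Chek1 stood at 4.67 on control replicate 1, below the nearest control at 4.76, in a group that was otherwise very tight. Parp2 stood at 7.98 on bleomycin replicate 3, above the nearest bleomycin array at 7.74. Leaving these arrays out did not change the call of any of these 3 genes.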

How the results depend on the processing

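No replicate numbering was shown to pair the arrays: deviations of bleomycin and control arrays with the same number correlated at 0.129, 0.063, 0.114 and 0.065, and not every array correlated best with its own number. Correlations within replicates 1 and 2 and within 3 and 4 ran from 0.063 to 0.129, and those between these sets from -0.14 to -0.0667. With the 2 sets as a block 14 members were called higher and 3 lower, adding Atr. With the replicate block 12 members were called higher and 1 lower, losing Brca1, Fanci and Prkdc. Members called lower, 2 in the full fit, numbered 1 after quantile normalization, 5 after centring arrays on their medians, 4 without the dimmer 50% of genes, 0 with replicates 1 and 2 alone, with 3 and 4 alone and without control replicates 1 and 2, and 0 to 2 without 1 array. The filter on dimmer genes left 20 of the 34 members to test. Of the 11090 genes it left in all, 18.4% were called higher and 18.8% lower, larger shares than in the full fit. Members called higher numbered 12 after median centring, losing Blmh and Fanci, and 6, 6, 0 and 6 without the dimmer genes, with replicates 1 and 2, with 3 and 4 and without control replicates 1 and 2. Over all genes these last 3 sets gave 838, 503 and 1205 higher and 833, 220 and 992 lower. Quantile normalization called 11.6% of all genes higher and 7.16% lower. The replicate block called 8.73% and 8.29%, and the block of 2 sets 10.3% and 9.77%. Median centring gave 1623 higher and 2314 lower over all genes, against 2022 and 1828. It lowers every difference by the same amount, and Blm went from 0.54 to 0.49 and Rad50 from -0.24 to -0.29. The recombination median was 0.28 without dimmer genes, where Rad51c and Blm alone remained, 0.43 with replicates 3 and 4 and 0.40 to 0.64 without 1 array. The end joining median was 0.0186 with replicates 1 and 2 and -0.018 with 3 and 4. The sensor median was 0.0573 after median centring, 0.0148 without dimmer genes, 0.24 with replicates 1 and 2, -0.0011 with 3 and 4 and 0.0545 to 0.15 without 1 array. Signs turned only in genes that did not pass. These were Nbn after quantile normalization (0.0027) and with replicates 1 and 2 (0.0116), Rad51c and Atm after median centring (-0.0332 and -0.0352), and Rad51c, Atm, Palb2, Xrcc6 and Mdc1 with replicates 3 and 4 (-0.0643, -0.0011, -0.0053, -0.018 and -0.0209). Parp2 was at -0.0392 without control replicates 1 and 2. Without 1 array Atm ranged from -0.00599 to 0.0321, Parp2 from -0.00851 to 0.11, Rad51c from -0.0343 to 0.0718 and Nbn from -0.0445 to 0.0166. Counting E2F letters on the gene strand alone gave 17.9% of member promoters and 5.84% of all. Smaller sets have fewer arrays, the filter tests fewer genes, median centring moves all differences down together, and the cause of the other changes was not tested.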
